A study of Mus musculus with 2 samples.

Results

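The 9 transcription factor genes Tcf21, Prrx1, Sox9, Tbx20, Gata4, Gata6, Hand2, Osr1 and Meox1, known from fibroblasts and heart mesenchyme, were followed across the non-myocyte cells of the adult mouse ventricle. They were taken by symbol, 9 of the 27998 genes in the deposited tables, and all 9 were found. Single cells came from the ventricles of 2 wild-type C57BL/6 mice aged 10 to 12 weeks, with 1 droplet 3' library per mouse. Both animals form a single untreated group, so every comparison is between cell classes of the same hearts. Hearts were digested on a perfusion rig, atria were taken off, myocytes were spun out and cells negative for the dead-cell dye 7-AAD were sorted.

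These proteins bind DNA and switch on programmes of the embryonic epicardium, valves, limb and body wall, from which many connective-tissue cells descend. In the adult heart, fibroblasts lay down and maintain collagen-rich matrix, and several of the same factors stay on in them long after development. Some are shared with other cells: the GATA and HAND factors also act in the endocardium, the inner lining of the heart chambers, and in muscle.

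Cells were assigned by UMIs of marker genes that are not among the 9, a UMI being a tag on 1 captured RNA molecule. Fibroblasts had at least 5 UMIs of Dcn, a matrix proteoglycan. Endothelial cells had at least 2 of Pecam1, Cdh5 and Egfl7 together, mural cells (pericytes and vessel smooth muscle) at least 4 of Rgs5, Kcnj8 and Vtn, and macrophages at least 15 of the complement genes C1qa, C1qb and C1qc. This gave 1860 and 1303 fibroblasts, 63 and 42 mural cells, 929 and 1269 endothelial cells and 2997 and 2361 macrophages in mouse 1 and mouse 2. Summed UMIs ran from 55838 (mural, mouse 2) to 9239668 (macrophage, mouse 1). Of the markers kept out of the gates, 8 of 8 fibroblast, 7 of 7 mural, 7 of 7 endothelial and 7 of 7 macrophage genes were highest in their own class. The 2 libraries shared 65 cell barcodes. Levels are CPM, a gene's UMIs per 1000000 UMIs summed across the cells of a class and mouse, given with exact Poisson 95% intervals that cover counting error only.

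**Figure D1:**
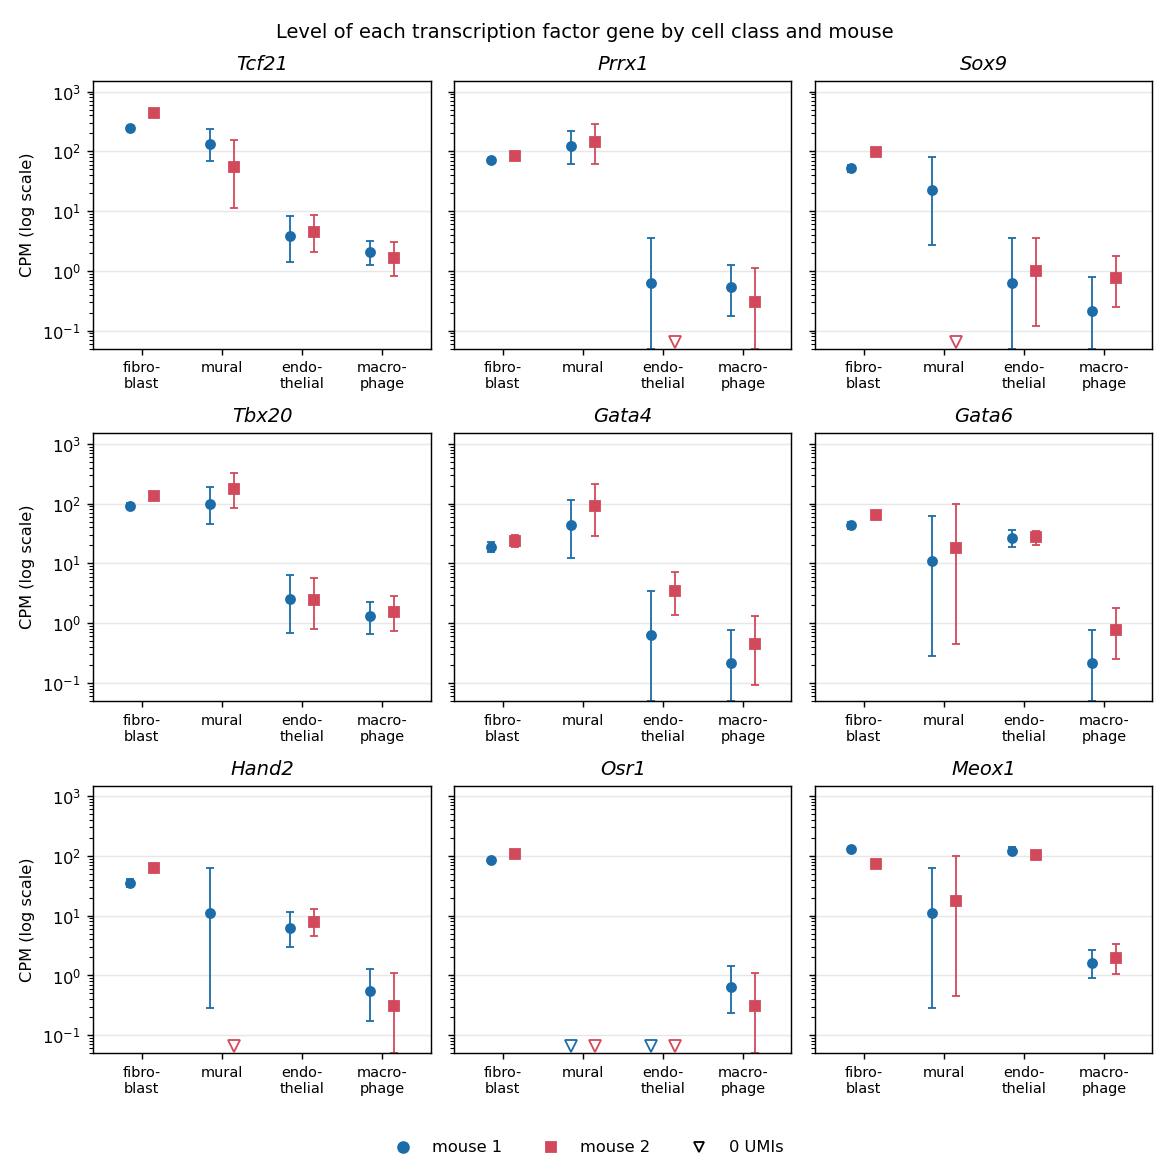
CPM on a log axis for each of the 9 genes (panels), by cell class and mouse; points are mice, bars are exact Poisson 95% intervals cut at the axis limits, and open triangles mark 0 UMIs. Tcf21 and Osr1 stand highest in fibroblasts, Prrx1, Tbx20 and Gata4 are as high or higher in mural cells, and Meox1 reaches 122 and 104 CPM in endothelial cells.

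Against endothelial cells, 8 of the 9 genes were called higher in fibroblasts, where 16.4% of the 11683 genes tested were called higher. Calls rest on edgeR's quasi-likelihood F test, with p-values adjusted by Benjamini-Hochberg across the whole set of tested genes; they require an adjusted p under 0.05 and a change of 1 or more on the log2 scale. The exception was Meox1. Against macrophages, 9 of 9 were called higher in fibroblasts (background 20.0%). Against mural cells, 6 of 9 were called higher (background 7.17%) and Prrx1, Tbx20 and Gata4 did not pass. All 9 genes passed the filter on low counts.

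**Figure D2:**
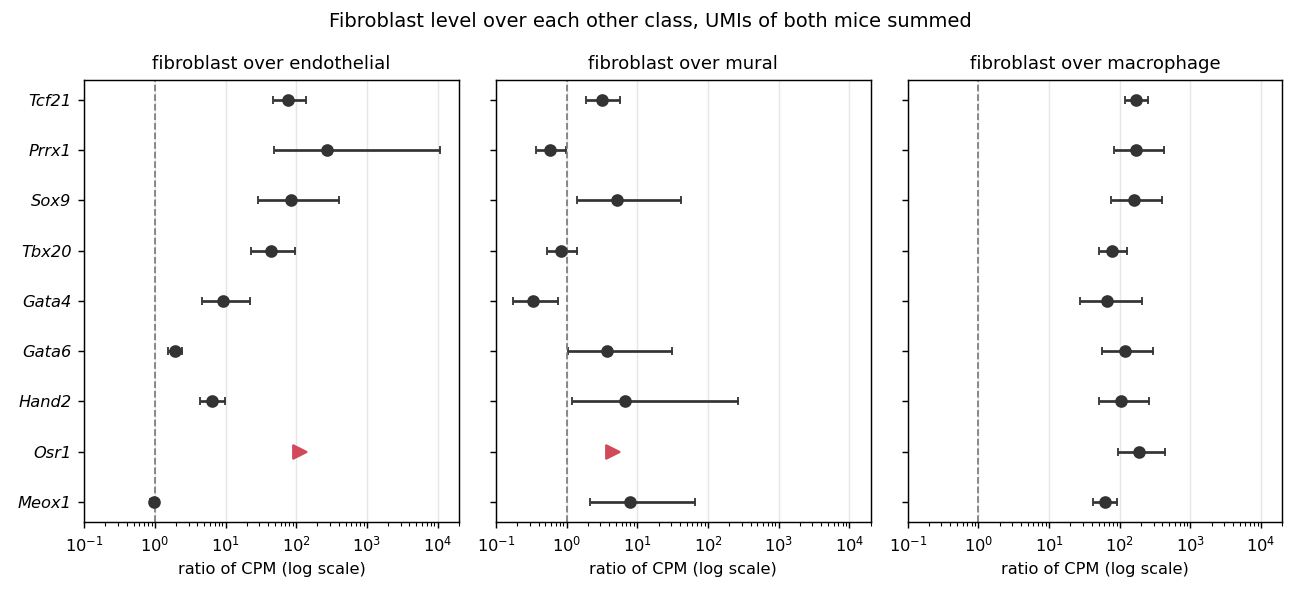
Ratio of the fibroblast CPM to that of endothelial cells, mural cells and macrophages for the 9 genes, UMIs of both mice summed, on a log axis; bars are exact 95% intervals and red arrowheads are lower bounds where the other class had 0 UMIs. The dashed line marks equal levels: Meox1 sits on it against endothelial cells, and Prrx1, Tbx20 and Gata4 lie left of it against mural cells.

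Tcf21 and Osr1 were the members with the clearest fibroblast pattern. Tcf21, a basic helix-loop-helix factor that mouse epicardial cells need to become cardiac fibroblasts, stood at 249 CPM (236 to 263) in fibroblasts of mouse 1 and 442 (420 to 465) in those of mouse 2, against 133 (68.7 to 232) and 53.7 (11.1 to 157) in mural cells. Its level was 3.78 and 4.46 CPM in endothelial cells and 2.06 and 1.67 CPM in macrophages. Fibroblasts were the highest class in each mouse and did not overlap with any other. The fitted difference was 6.42 ± 0.28 (log2, SE) over endothelial cells (edgeR adjusted p = 2.09e-17) and 2.14 ± 0.35 over mural cells (edgeR adjusted p = 3.45e-05). Mural cells were in turn 4.28 ± 0.63 above endothelial cells (log2, SE; edgeR adjusted p = 9.23e-06). Throughout, the SE is the absolute log2 difference divided by the square root of the F value of its edgeR test. It restates the test and was not measured from the spread between the mice. Where a class held few UMIs it can be smaller than the counting error.

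Osr1, an odd-skipped zinc-finger factor of intermediate mesoderm and connective tissue, had 85.6 CPM (77.9 to 93.8) and 106 (94.9 to 117) in fibroblasts of mouse 1 and mouse 2, and 0 UMIs in the mural and endothelial cells of both mice. Its macrophage level was 0.649 and 0.304 CPM. The fibroblast level was therefore at least 112-fold higher than that of endothelial cells, taking 3 UMIs over both mice as the limit that a count of 0 allows. For the far shallower mural sums the same bound was 4.54-fold.

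Sox9, the factor that directs cartilage and heart valve mesenchyme, had 51.7 CPM (45.7 to 58.2) and 98.2 (87.8 to 109) in fibroblasts and 22.2 and 0 CPM in mural cells, the mouse 1 value resting on 2 UMIs. Endothelial cells had 0.631 and 0.991 CPM and macrophages 0.216 and 0.76 CPM. Fibroblasts were well above both of these classes in each mouse, with a ratio of 83.6 (95% interval 28.5 to 406) over endothelial cells, which held 3 UMIs (edgeR adjusted p = 1.16e-13). Over mural cells the ratio was 5.08 (95% interval 1.4 to 42.04), and that call was lost with DESeq2 (adjusted p = 0.108) and without the mouse block (adjusted p = 0.0645 in edgeR).

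Prrx1, Tbx20 and Gata4 were detected in both fibroblasts and mural cells, at lower levels in macrophages and in endothelial cells as a whole; endocardial cells are described separately further on. Prrx1, a paired-related homeobox factor of limb and skull mesenchyme, had 70.4 CPM (63.4 to 78) and 84.5 (74.9 to 95.04) in fibroblasts, against 122 (60.9 to 218) and 143 (61.9 to 282) in mural cells. It had 1 UMI in all endothelial cells together and 0.541 and 0.304 CPM in macrophages. Both mural values lay above both fibroblast values, but the difference of -0.30 ± 0.37 (log2 fibroblast over mural, SE) did not pass (edgeR adjusted p = 0.695). The comparison of mural with endothelial cells did pass, at a ratio of 469 (95% interval 74.5 to 19480; edgeR adjusted p = 7.25e-09), as did that of fibroblasts with endothelial cells, at a ratio of 273 (48.9 to 10813; edgeR adjusted p = 1.99e-14).

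Tbx20, a T-box factor required for heart chamber growth, had 92.9 and 135 CPM in fibroblasts and 99.8 and 179 CPM in mural cells. The groups overlapped. Fibroblasts were the lower class in each mouse in CPM, with a ratio of 0.839 over mural cells (95% interval 0.534 to 1.4), while the TMM-scaled fit gave 0.22 ± 0.33 (log2 fibroblast over mural, SE; edgeR adjusted p = 0.762). The sign thus depends on the scaling, and no direction is read for Tbx20 between these classes. Endothelial cells had 2.52 and 2.48 CPM and macrophages 1.3 and 1.52 CPM, and mural cells were 5.34 ± 0.56 above endothelial cells (log2, SE; edgeR adjusted p = 3.39e-08).

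Gata4, a zinc-finger factor best known from heart muscle and endocardial cushions, had 18.7 CPM (15.2 to 22.8) and 23.6 (18.7 to 29.5) in fibroblasts, against 44.3 (12.1 to 114) and 89.5 (29.1 to 209) in mural cells. Mural cells were the higher class in each mouse, yet they held 9 Gata4 UMIs in all, and the difference of -1.11 ± 0.61 (log2 fibroblast over mural, SE) did not pass (edgeR adjusted p = 0.297). Mural cells were above endothelial cells by 4.45 ± 0.85 (log2, SE; edgeR adjusted p = 3.22e-04), where endothelial cells had 0.631 and 3.47 CPM.

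Across mural and endothelial cells, 4 of 9 genes were called higher in mural cells (Prrx1, Tbx20, Tcf21 and Gata4; background 4.55%) and 1 lower (Meox1; background 7.28%). Over macrophages, 5 of 9 were called higher in mural cells (the same 4 and Gata6; background 9.12%), the Gata6 call resting on 2 mural UMIs. That call (edgeR adjusted p = 0.0486) was lost without the low-count filter, without the mouse block, with doublet calls kept, with multi-gate cells assigned and without cells rich in cardiomyocyte transcripts (edgeR adjusted p = 0.0502, 0.0618, 0.0517, 0.0826 and 0.052), and its sign turned with doubled gates. The median of all genes tested shifted by 0.40 between fibroblasts and mural cells and by -0.39 between mural and endothelial cells (log2), so differences near that size are not read as changes here. The summed level of the 8 fibroblast markers in mural cells was 8.56% and 9.22% of that in fibroblasts, with none of the 8 at 0, and that of the 7 endothelial markers was 20.8% and 20.5% of that in endothelial cells. When mural cells with any Dcn UMI were left out, 49 and 31 cells remained, with 128 and 48.1 CPM of Prrx1, 114 and 193 of Tbx20, 42.8 and 96.3 of Gata4 and 99.9 and 72.2 of Tcf21. All mural cells held 11 and 8 Prrx1 UMIs, 9 and 10 of Tbx20, 4 and 5 of Gata4 and 12 and 3 of Tcf21. The values from the remaining cells rest on no more UMIs than that and are imprecise. The difference for Prrx1 then turned to 0.16 (log2 fibroblast over mural; edgeR adjusted p = 0.893).

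Gata6 and Hand2 divided the endothelium. Gata6, a second GATA factor of the heart and its outflow vessels, had 43.4 CPM (37.9 to 49.3) and 64.8 (56.4 to 74.1) in fibroblasts and 26.5 (19.1 to 35.8) and 27.2 (20.5 to 35.5) in endothelial cells. Hand2, a basic helix-loop-helix factor named for its roles in heart and neural crest, had 35.2 and 63.9 CPM in fibroblasts and 6.31 and 7.93 CPM in endothelial cells. Fibroblasts exceeded endothelial cells in each mouse for both genes, by 1.06 ± 0.22 for Gata6 (log2, SE; edgeR adjusted p = 1.93e-04) and 2.84 ± 0.30 for Hand2 (edgeR adjusted p = 5.01e-09). The Gata6 difference fell below the fold limit of 1 when cells passing several gates were assigned to one (0.87) and when every gate was doubled (0.82). Mural cells held 2 Gata6 UMIs and 1 Hand2 UMI, giving fibroblast over mural ratios of 3.77 (95% interval 1.04 to 31.2) for Gata6 and 6.76 (1.21 to 267) for Hand2. Those calls (edgeR adjusted p = 0.0381 and 0.0266) were lost with DESeq2 (adjusted p = 0.194 and 0.211) and without the mouse block (edgeR adjusted p = 0.0676 and 0.0636). Both were also lost when cells outside the fibroblasts with any Dcn UMI were left out (edgeR adjusted p = 0.106 and 0.0925). The Gata6 call was further lost with RLE scaling and without cells rich in cardiomyocyte transcripts (edgeR adjusted p = 0.0633 and 0.0518).

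Within the endothelial gate, 40 cells of each mouse had at least 2 UMIs of the endocardial genes Npr3 and Cytl1. Of 7 further endocardial markers, 6 were highest in them, and Fst was not detected there. Gata6 stood at 171 CPM (88.2 to 298) and 144 (72.1 to 258) in these endocardial cells, against 19.8 (13.4 to 28.3) and 22.7 (16.5 to 30.4) in the other endothelial cells. Hand2 stood at 71.2 (23.1 to 166) and 52.5 (14.3 to 134), against 3.3 (1.07 to 7.7) and 6.18 (3.19 to 10.8). Neither gene overlapped between the subsets. Gata6 was 2.52 ± 0.44 higher (log2, SE; edgeR adjusted p = 5.83e-06) and Hand2 3.30 ± 0.75 higher (edgeR adjusted p = 9.66e-04).

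Meox1 went the other way, with 0 and 13.1 CPM (1 UMI) in endocardial cells against 128 (111 to 147) and 107 (93 to 123) in other endothelial cells, a ratio of 0.0587 (95% interval 0.00148 to 0.329; edgeR adjusted p = 1.31e-05, DESeq2 adjusted p = 0.0721). Thus 2 members were called higher (background 2.49%) and 1 lower (background 3.86%) in endocardial cells. Tbx20 and Gata4 had 3 UMIs each in the 80 endocardial cells, with ratios over other endothelial cells of 11.8 (95% interval 1.91 to 55.3) for Tbx20 and 14.2 (2.2 to 72.8) for Gata4. These did not pass (edgeR adjusted p = 0.11 and 0.127), but DESeq2 called both (adjusted p = 0.018 and 0.0202). Gata4 was also called with multi-gate cells assigned (edgeR adjusted p = 0.00207) and with doubled gates (edgeR adjusted p = 0.0157). All 3 endocardial Gata4 UMIs came from mouse 2, however. With mouse 2 left out the Gata4 difference turned from 3.41 to -3.45 (log2), so no direction shared by both mice is read for it.

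Endocardial cells carried Gata6 above even the fibroblasts outside the Pi16 and matrix gates described further on, 171 and 144 CPM against 45 and 66.6 CPM (1.09 ± 0.38, log2, SE; edgeR adjusted p = 0.0446). This call was lost without the low-count filter, without the mouse block, with doubled gates and when endocardial cells with any Dcn UMI were left out (edgeR adjusted p = 0.0716, 0.106, 0.0616 and 0.642). Hand2 did not differ detectably between the same groups (-0.12 ± 0.54, log2, SE; edgeR adjusted p = 0.917), and RLE scaling turned its sign. In this comparison 1 member was called higher (background 5.27%) and 6 were called lower (background 6.71%): Prrx1, Tcf21, Tbx20, Meox1, Sox9 and Osr1. The Tbx20, Meox1 and Sox9 calls were lost with DESeq2 (adjusted p = 0.0509, 0.0952 and 0.112), and the Sox9 call also without the mouse block (edgeR adjusted p = 0.0526). Prrx1 and Osr1 had 0 UMIs in endocardial cells and were at least 3.58-fold and 5.21-fold lower there.

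The median of all genes was shifted by -0.42 between endocardial and other endothelial cells and by -0.44 between endocardial cells and fibroblasts (log2). The 8 fibroblast markers summed in endocardial cells to 12.9% and 14.5% of their fibroblast level, with Col1a1 and Pdgfra at 0. In other endothelial cells they summed to 1.22% and 1.01%. The 7 endothelial markers summed in endocardial cells to 27.5% and 26.6% of their level in all endothelial cells, with Cldn5 at 0. In the 20 and 14 endocardial cells with no Dcn UMI, Gata6 was at 168 and 74.6 CPM and Hand2 at 112 and 74.6 CPM, against 17.4 and 20.8 CPM of Gata6 and 3.32 and 5.36 CPM of Hand2 in other endothelial cells treated alike. All endocardial cells held 12 and 11 Gata6 UMIs and 5 and 4 Hand2 UMIs in mouse 1 and mouse 2. The values from these fewer cells rest on no more UMIs than that and are imprecise.

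**Figure D3:**
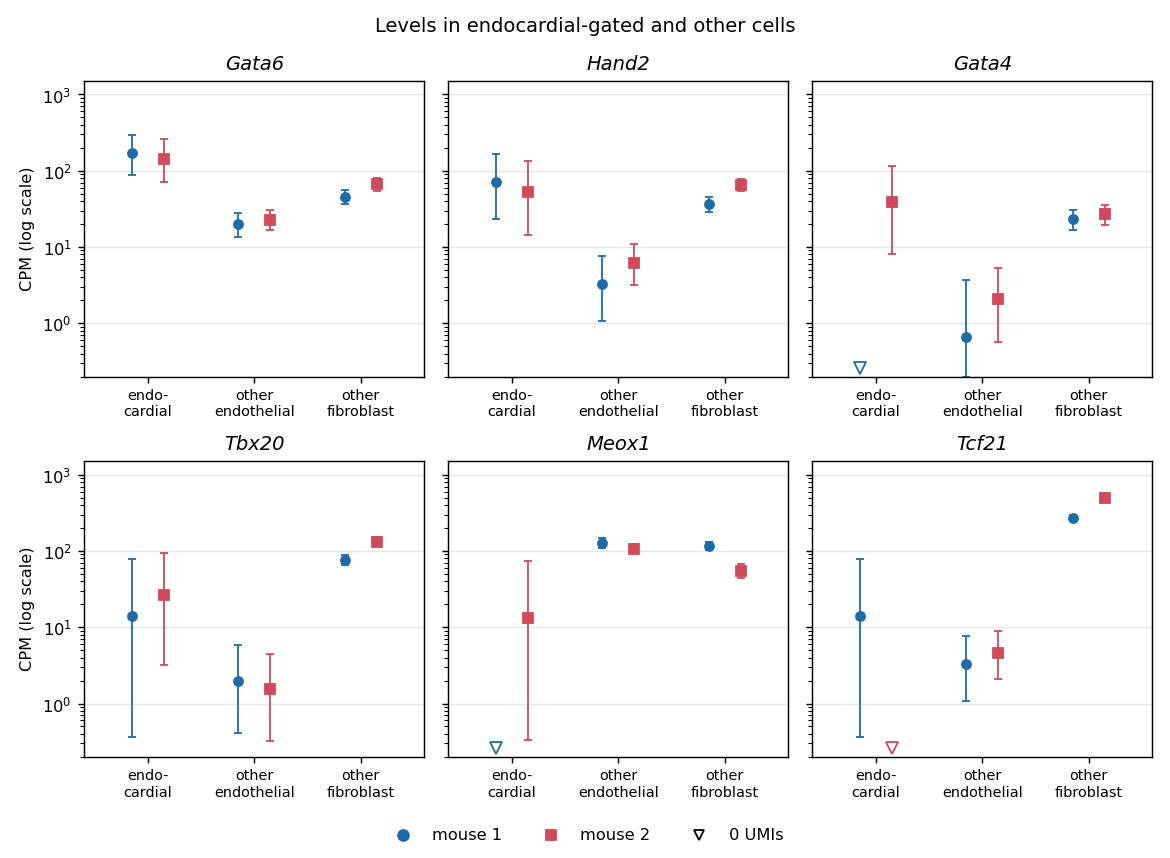
CPM on a log axis of 6 genes in endocardial cells, other endothelial cells and fibroblasts outside the Pi16 and matrix gates; points are mice, bars exact Poisson 95% intervals cut at the axis limits, open triangles 0 UMIs. Gata6 (171 and 144 CPM) and Hand2 (71.2 and 52.5 CPM) are high in endocardial cells, where Meox1 has 1 UMI in all.

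Meox1 was the 1 gene of the 9 not called between fibroblasts and endothelium. This homeobox factor of the somites, linked in mouse hearts to fibroblast activation under stress, had 128 CPM (119 to 138) and 74.2 (65.2 to 84.1) in fibroblasts against 122 (106 to 141) and 104 (90 to 119) in endothelial cells. The 2 classes overlapped and the difference of -0.13 ± 0.17 (log2, SE) did not pass (edgeR adjusted p = 0.575). Mural cells had 1 UMI in each mouse, against which the fibroblast ratio was 7.85 (95% interval 2.17 to 64.9; edgeR adjusted p = 4.89e-04), and macrophages had 1.62 and 1.98 CPM. Over macrophages, endothelial cells were higher by 5.60 ± 0.25 for Meox1 (log2, SE; edgeR adjusted p = 3.02e-17).

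Of the 9 genes, 4 were called higher in endothelial cells than in macrophages (background 16.8%): Meox1, Gata6 (5.37 ± 0.40, log2, SE), Hand2 (3.43 ± 0.56) and Gata4 (ratio 7.02, 95% interval 2.03 to 27.3; edgeR adjusted p = 0.0312). The Gata4 value rests on 8 endothelial UMIs, 7 of them in mouse 2, and was lost when cells with a Dcn UMI were left out (0.23; edgeR adjusted p = 0.897).

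Fibroblasts were next divided by Pi16, a gene of adventitial fibroblasts around vessels (at least 2 UMIs), and by the matrix genes Cilp, Postn and Thbs4 (at least 4 UMIs together). None of the 9 genes was called between the 1024 and 546 Pi16 fibroblasts and the 802 and 744 other fibroblasts, where 173 of 11309 genes (1.53%) were called either way. Fitted differences lay between -0.43 for Gata4 and 0.28 for Sox9 (log2). At an unadjusted p below 0.05 the same edgeR test held 987 genes, and DESeq2 called 59 genes. Tcf21 had 236 and 395 CPM in Pi16 fibroblasts against 274 and 494 in the others, and Osr1 had 82.9 and 89.6 CPM against 91.9 and 124. Both were lower in the Pi16 cells of each mouse, by -0.26 ± 0.17 for Tcf21 (log2, SE; edgeR adjusted p = 0.801) and -0.30 ± 0.18 for Osr1 (edgeR adjusted p = 0.743), short of a call. Other fibroblasts also carried the 7 epicardial and mesothelial markers at a summed 104 and 81.4 CPM, against 0.635 and 0.64 CPM in Pi16 fibroblasts; the part of these cells in the values was not tested.

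Only 4 and 1 cells passed the matrix gate without passing that for Pi16, and the median of all genes then shifted by -5.54 (log2), so no level is read from them. There, 1 member, Tcf21, was called lower than in other fibroblasts (background 1.96%) and higher in Pi16 than in matrix fibroblasts (background 2.10%), from 1 matrix UMI. A grouping chosen after the cells had been counted therefore took all cells past the matrix gate, 34 and 13, whether or not they passed that for Pi16. Meox1 reached 505 CPM (391 to 641) and 542 (366 to 774) in these matrix-gate fibroblasts, against 117 (102 to 133) and 55.3 (44.6 to 67.7) in other fibroblasts and 120 (108 to 132) and 78 (64.8 to 93.2) in Pi16 fibroblasts. The values did not overlap, and the difference over other fibroblasts was 2.25 ± 0.25 (log2, SE; edgeR adjusted p = 7.08e-10). In the 4 and 1 cells passing only the matrix gate, Meox1 was 1.60 ± 0.55 above other fibroblasts and did not pass (edgeR adjusted p = 0.134). The later grouping was fitted with edgeR only, and none of the other alternatives was run on it. Pi16 fibroblasts lay below the matrix-gate cells by -2.02 ± 0.24 (log2, SE; edgeR adjusted p = 3.35e-08).

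Meox1 was the 1 member called higher in matrix-gate than in other fibroblasts (background 0.709%), and the 1 called lower in Pi16 than in matrix-gate fibroblasts (background 0.225%). Tcf21 and Osr1 were called lower in matrix-gate than in other fibroblasts (background 1.48%). Tcf21 had 181 and 199 CPM in matrix-gate cells against 274 and 494 CPM in other fibroblasts (-1.23 ± 0.28, log2, SE; edgeR adjusted p = 0.00408). For Osr1 the values were 52.8 and 0 CPM, from 7 UMIs, against 91.9 and 124 CPM (edgeR adjusted p = 0.0322). The median of all genes was shifted by -0.36 in this comparison. Of 5 matrix-fibroblast markers outside the gate, 2 were highest in these cells and Cilp2 was at 0.

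**Figure D4:**
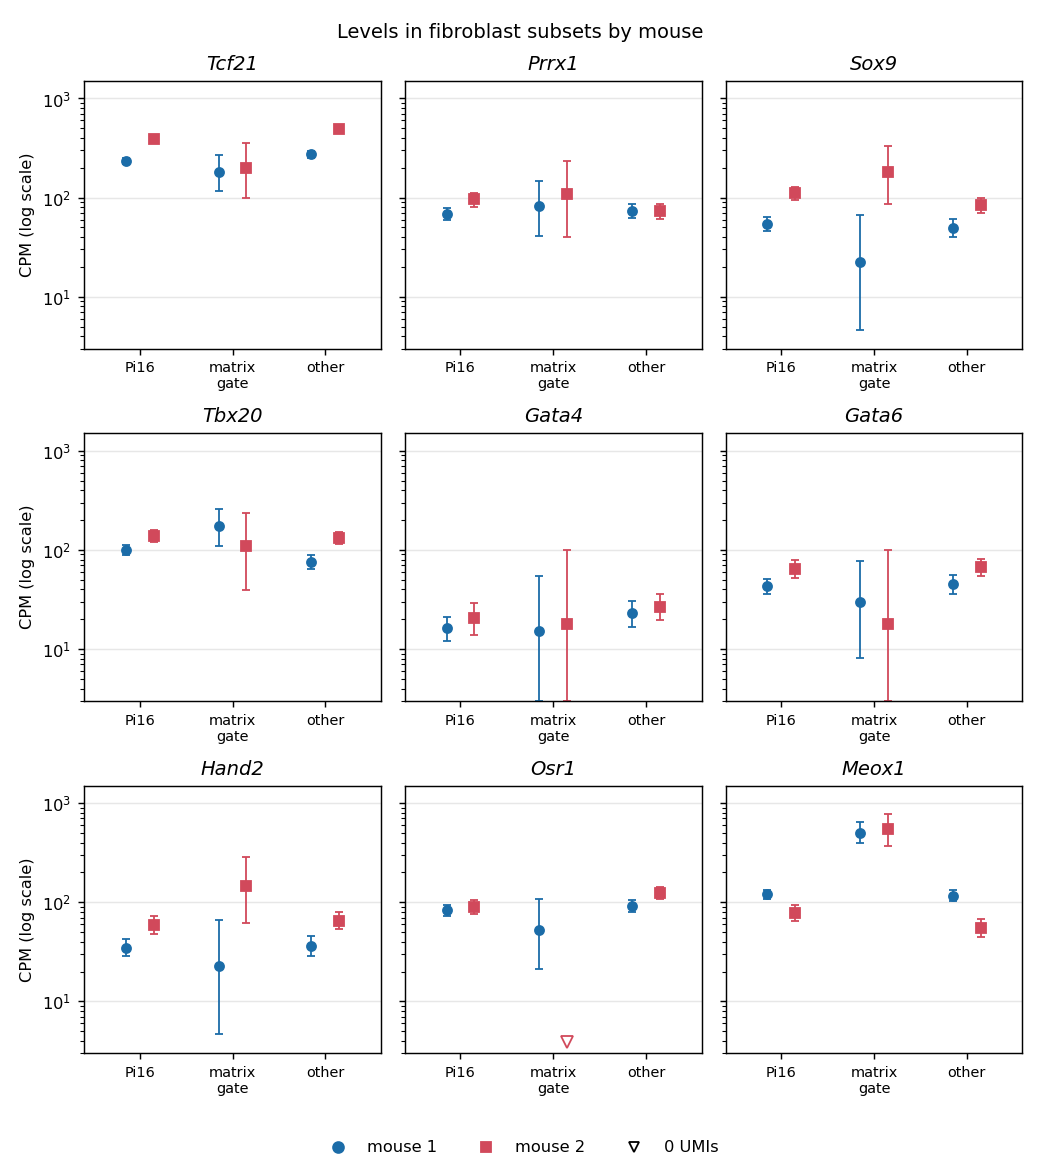
CPM on a log axis of the 9 genes in Pi16 fibroblasts, matrix-gate fibroblasts (34 and 13 cells) and other fibroblasts; points are mice, bars exact Poisson 95% intervals cut at the axis limits, the open triangle 0 UMIs. Meox1 stands at 505 and 542 CPM in matrix-gate cells, above every other fibroblast value shown for it.

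Seen cell by cell, detection was sparse. Tcf21 had a UMI in 52.5% of fibroblasts (Clopper-Pearson 95% interval 50.7 to 54.2), against 13.3% (7.49 to 21.4) of mural cells, 0.682% (0.382 to 1.12) of endothelial cells and 0.541% (0.363 to 0.776) of macrophages, a type that should lack it. After thinning each cell to 1000 UMIs the shares were 25.6%, 15.5%, 0.51% and 0.226%. The other members were seen in 5.47% (Gata4) to 23.3% (Tbx20) of fibroblasts and in 0.0933% (Gata4) to 0.504% (Meox1) of macrophages. Median depth was 2752 and 2471 UMIs per cell in fibroblasts, 1295 and 1293.5 in mural cells, 1463 and 1410 in endothelial cells and 2845 and 2616 in macrophages. Gata6 had a UMI in 26.2% (17.04 to 37.3) of endocardial cells against 3.45% (2.71 to 4.31) of other endothelial cells, and Meox1 in 1.25% against 14.7%; thinned, these were 17.9% against 2.34% and 1.28% against 9.98%.

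**Figure D5:**
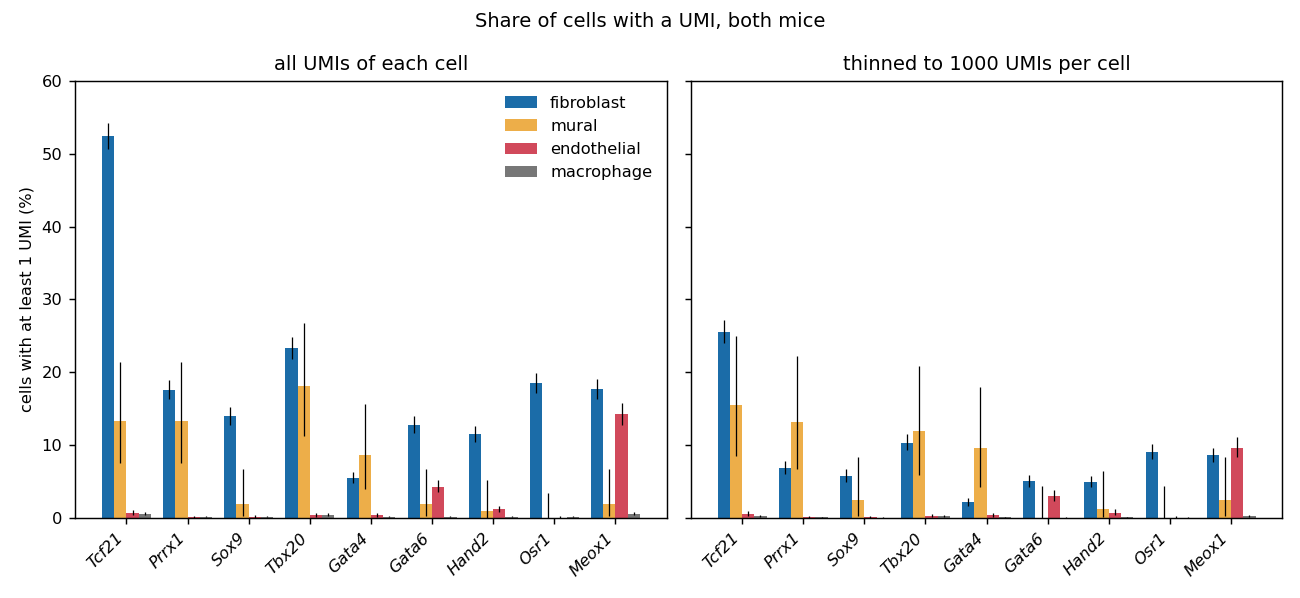
Percent of cells with at least 1 UMI of each gene in 4 classes, both mice together, with all UMIs (left) and after thinning to 1000 UMIs per cell (right); bars start at 0 and lines are Clopper-Pearson 95% intervals. Tcf21 is the most often detected gene in fibroblasts (52.5%, thinned 25.6%), and macrophage shares stay below 1%.

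A fibroblast held a median of 1 of the 9 genes in mouse 1 and 2 in mouse 2, and at least 3 of them in 20.4% and 29.2% of cells. In thinned fibroblasts, 13 of 36 gene pairs in mouse 1 and 17 of 36 in mouse 2 were seen together more often than the product of their shares. The median ratio of seen to expected was 0.915 and 0.948, and in counts this sparse no pairing is read from it.

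Levels differed between the fibroblasts of the 2 mice, which has no test since each side is 1 library. Mouse 1 had 0.564 of the Tcf21 level of mouse 2 (95% interval 0.523 to 0.608), 0.527 of its Sox9 level (0.447 to 0.62) and 0.551 of its Hand2 level (0.45 to 0.674). Meox1 was 1.73-fold higher in mouse 1 (1.49 to 2.01), in Pi16 (1.53) as in other fibroblasts (2.11). Gata4 was the one member whose interval included 1 (ratio 0.793, 0.584 to 1.08). The 12 cardiomyocyte markers summed to 457 CPM in fibroblasts of mouse 1 and 191 CPM in those of mouse 2; the 4 neutrophil markers summed to 300.4 and 3.03 CPM in the same cells. The part of either in these differences was not tested.

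Among 47 other mesenchyme transcription factors in the tables, 36 could be tested, and 16 were called higher (background 16.4%) and 9 lower (background 14.4%) in fibroblasts than in endothelial cells, with a median difference of 0.92 against 0.03 for all genes (log2). Ebf2 had 65.7 and 119 CPM in fibroblasts against 1.26 and 1.98 in endothelial cells, and Heyl, a Notch target, had 74.6 and 123 CPM against 1.26 and 4.46. Foxs1, Foxp2 and Zeb2 were also among the largest rises, and Tbx3 was lower in fibroblasts, at 0.947 and 1.21 CPM against 73.2 and 82.2. Against mural cells the same 36 genes divided into 5 called higher (background 7.17%) and 9 called lower (background 4.03%) in fibroblasts: Nr2f2, an orphan nuclear receptor, had 31.6 and 43.9 CPM in fibroblasts against 377 and 412 in mural cells. Klf4, Nfix and Creb3l1 were higher in fibroblasts. Against macrophages, 29 were called higher (background 20.0%) and 5 lower (background 17.8%) in fibroblasts, Runx1, Mef2c, Mef2a, Zeb2 and Foxp1 being the lower ones; that lower count is near the background and is not read as a result.

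Other, smaller lists hold relatives and partners of the members, too few genes for their counts to be read against the background of 16.4% called higher and 14.4% called lower in fibroblasts than in endothelial cells. Of 4 tested genes of the GATA family and its cofactors, 1 was higher and 3 lower in fibroblasts than in endothelial cells, and Gata2, the endothelial and blood GATA factor, had 0.757 and 1.82 CPM in fibroblasts against 135 and 132 CPM in endothelial cells. Of 9 tested genes of the Sox family and the cartilage programme of Sox9, 4 were higher and 5 lower. Sox18, Sox17 and Sox7, the endothelial Sox factors, were among the lower ones, Sox18 with 1.7 and 1.51 CPM in fibroblasts against 687 and 666. Of the 7 E proteins and Id proteins, partners and inhibitors of factors such as Tcf21 and Hand2, none was higher and 2 were lower, Id1 at 24.6 and 41.2 CPM against 1741 and 1620.

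Between endocardial and other endothelial cells, 6 of the 36 mesenchyme factors were called higher (background 2.49%) and 3 lower (background 3.86%). Foxc1, a forkhead factor, had 299 and 249 CPM in endocardial cells against 17.8 and 13.4 in the others, and Meis2 had 99.6 and 171 against 5.94 and 10.3. Meox2, the paralogue of Meox1, had 14.2 and 0 CPM against 143 and 264, and Tbx3 had 0 UMIs there. No tested gene of these 4 lists was called between Pi16 and other fibroblasts. Between matrix-gate and other fibroblasts, Ctgf, a matricellular protein gene, was higher, at 497 and 217 CPM against 68.9 and 35.7. Id2 had 158 and 36.2 CPM against 234 and 279, Id3 had 309 and 127 CPM against 474 and 585, and both were called lower in matrix-gate cells.

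Patterns were set against each other by Pearson correlation of log2(CPM + 10) over 14 sums, 7 subsets in 2 mice, among 11752 genes with at least 50 UMIs. This is a description, since the sums share libraries and 2 of the 14 hold only 5 cells between them. Prrx1 was most like Gli3 (0.99), Ebf2 (0.99) and Vasn (0.99), Osr1 most like Sfrp2 (0.9996), Gfra1 (1.00) and Clec11a (1.00), and Gata6 most like Hs3st1 (0.96), Bace2 (0.95) and Eln (0.95). Leading likenesses of the others were Col5a3 for Tcf21 (0.96), Plekhf1 for Sox9 (0.95), Heyl for Tbx20 (0.96), Slc25a47 for Gata4 (0.98), Ccdc8 for Hand2 (0.96) and Gar1 for Meox1 (0.91). Without the 5-cell matrix sums, in 12 sums, Gli3, Sfrp2, Hs3st1 and Slc25a47 still led for Prrx1, Osr1, Gata6 and Gata4, while Entpd2 led for Tcf21, Col6a2 for Sox9, Oaf for Tbx20, Scd2 for Hand2 and Vwa1 for Meox1.

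Among the members themselves the 12 sums gave 0.94 for Prrx1 with Tbx20, 0.85 for Gata4 with Tbx20, 0.78 for Gata4 with Prrx1, 0.93 for Tcf21 with Sox9 and 0.89 for Gata6 with Hand2. Gata6 with Prrx1 gave 0.06. The start regions of the genes that moved with a GATA member are shown because GATA factors bind the letters GATA; each runs from 250 bases before the start to 50 after it, on the gene's strand (RefSeq, GRCm38.p6). The stretches are chr8:57320733-57321032 (+) for Hand2, chr9:24774254-24774553 (-) for Tbx20 and chr1:163313601-163313900 (-) for Prrx1. Capitals mark GATAA or its reverse complement TTATC:
Hand2: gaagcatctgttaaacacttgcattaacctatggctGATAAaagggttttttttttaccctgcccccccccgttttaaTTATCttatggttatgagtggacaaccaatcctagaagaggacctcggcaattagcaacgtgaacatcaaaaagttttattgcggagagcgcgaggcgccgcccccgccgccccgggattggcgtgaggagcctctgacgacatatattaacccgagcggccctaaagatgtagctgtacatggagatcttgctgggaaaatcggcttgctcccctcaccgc
Tbx20: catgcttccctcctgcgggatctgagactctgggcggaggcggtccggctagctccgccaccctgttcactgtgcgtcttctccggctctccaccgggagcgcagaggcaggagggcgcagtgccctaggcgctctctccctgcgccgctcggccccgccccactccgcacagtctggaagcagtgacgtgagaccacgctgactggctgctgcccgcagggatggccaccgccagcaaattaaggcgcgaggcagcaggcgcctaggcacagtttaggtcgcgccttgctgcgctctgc
Prrx1: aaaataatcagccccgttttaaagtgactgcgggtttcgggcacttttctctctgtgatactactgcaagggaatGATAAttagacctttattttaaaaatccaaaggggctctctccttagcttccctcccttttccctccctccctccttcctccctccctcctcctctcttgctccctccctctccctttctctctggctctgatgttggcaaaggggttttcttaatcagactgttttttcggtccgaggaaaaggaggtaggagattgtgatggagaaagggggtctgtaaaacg

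GATAA, searched on both strands, occurred at -214 and -172 bases from the start of Hand2 and at -175 bases from that of Prrx1, and not in the Tbx20 window. It also occurred at -30 bases from the start site used for the Tcf21 window (chr10:22820094-22820393, -), which is not shown. Of 32851 start regions of the same length, 25.4% held at least 1 such match, so a match here is a description of these letters and not a binding site. The E-box CANNTG, the motif of helix-loop-helix factors such as Tcf21 and Hand2 and the same on both strands, was found in the Hand2 window at -246 and -235 bases from the start and in 72.3% of all start regions. It was not found in the windows of Tbx20, Prrx1 and Tcf21. Tables held a start region for these 4 members, and the other 5 are not shown. In the mm10 annotation the genes lie at chr10:22817281-22820174 (Tcf21, minus strand), chr1:163245119-163313710 (Prrx1, minus), chr9:24718138-24774303 (Tbx20, minus), chr8:57320983-57324633 (Hand2, plus), chr12:9570116-9581500 (Osr1, plus), chr11:112782224-112787760 (Sox9, plus), chr11:101877510-101894374 (Meox1, minus) and chr14:63198922-63271692 (Gata4, minus). Gata6 lies at chr18:11052064-11085635 (plus). For Tcf21 and Prrx1 the start site used for the window lies inside the gene span given here. Motif distances from the start of that span would differ for both.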

How the data were processed

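Per the labels, each library was made from the live-sorted ventricular non-myocytes of 1 mouse with droplet 3' chemistry. Per the submitters' processing notes, Cell Ranger 2.2.0 and FastQC were used with the mm10 build. The deposited values are raw UMI counts per gene and cell barcode, 7732 and 6367 barcodes with 21355383 and 15174548 UMIs in mouse 1 and mouse 2; the authors' counting settings and any cell annotation are not given in the sources used here.

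From these counts, barcodes below 500 UMIs or 300 genes, or above 10% mitochondrial UMIs, were dropped, and Scrublet calls (5.77% and 4.18%) were removed with scanpy 1.11.5, leaving 6608 and 5687 cells. Cells passing 1 gate (5849 and 4975) were used; 188 and 130 passed several and 571 and 582 none. The UMIs of a class in a mouse were added up and compared with edgeR 4.0.16 in R 4.3.3 (TMM scaling, filterByExpr, quasi-likelihood F test, mouse as replicate block), in 1 fit of 4 classes (8 sums) and 1 of 7 subsets (14 sums). The block is the animal: all classes of a mouse come from the same library. With 2 mice, p-values rest on a spread that all sums share and that edgeR moderates across genes. Small p-values therefore do not measure agreement between the 2 mice alone. The edgeR test was tested on simulated data in both designs, for 2 comparisons each.

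Members and gene lists were chosen with earlier results of these data known. Beyond the 9 members, the text names, per comparison, up to 6 called list genes that rose and 6 that fell most, moving alike in both mice and reaching 30 CPM in the higher class, and for each member the 3 genes of most similar pattern. Folds against 0 UMIs use 3 UMIs over the group. Alternatives were RLE scaling, DESeq2 1.42.0, no low-count filter, no block, doublets kept, multi-gate cells assigned, doubled gates, cells with over 1% cardiomyocyte UMIs left out, no fold limit, only the compared subsets and leaving out each mouse. Another 2 were chosen after seeing the data. The non-coding neighbours of the members were not analysed here.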

Additional observations from a re-analysis of the deposited data

Results flagged for a closer look

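Cells that passed no gate, 571 in mouse 1 and 582 in mouse 2, entered no comparison. In them 4 of the 9 genes lay above their level in macrophages. Meox1 was at 20.6 CPM over both mice (46 UMIs; 95% interval 15.1 to 27.5), with 21.3 CPM in mouse 1 and 19.9 CPM in mouse 2, against 1.62 and 1.98 CPM in macrophages. Gata6 was at 6.27 CPM, from 8 and 6 UMIs. Prrx1 was at 3.58 CPM, from 4 UMIs in each mouse, and Hand2 was also at 3.58 CPM, from 6 and 2 UMIs. The 7 endothelial markers summed in these cells to 22.0% and 24.2% of their level in endothelial cells, and the 7 macrophage markers to 37.3% and 18.9% of their level in macrophages; their part in the values of the 4 genes was not tested.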

How the results depend on the processing

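Outside the matrix gate, 76 results for single members were recomputed under the alternatives, and 867 of 942 values were counted as unchanged. For values with a test, this meant the same direction and the same side of the threshold. With a mouse left out, it meant a move no larger than the SD of the leave-out values (61 of 76 without mouse 1, 67 of 76 without mouse 2). That SD comes from the leave-out values themselves, so the limit widens as the mice disagree more. A main value midway between them always passes, and these counts therefore cannot show that the mice agree. The rule also let a value not called in the main fit change its sign. Dropping the fold limit reused the main fit, and 76 of 76 values were unchanged there. Where a call or a count changed, the cause was not tested. That holds too where an alternative left cells out, since this also lowers the UMIs summed. Leaving out a mouse gives values with no test, since 1 sum per class remains.

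Counts of called members and genes moved as follows. Between fibroblasts and mural cells, 6 members were called, against 3 with DESeq2 and 3 without the replicate block. Between endocardial cells and other fibroblasts 7 members were called, against 4 with DESeq2. Between Pi16 and other fibroblasts 173 genes were called, against 59 with DESeq2, 49 without the replicate block and 267 with no fold limit. With no fold limit, fibroblasts over macrophages gave 6794 genes (4412 with it) and endothelial cells over macrophages 5846 (3889 with it). Endocardial over other endothelial cells gave 718 genes, 463 without the replicate block and 429 when cells with a Dcn UMI were left out.

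The 5-cell matrix gate gave no stable count. Against other fibroblasts it called 1 member, 0 with RLE scaling, DESeq2, no replicate block or only the compared subsets, 2 with multi-gate cells assigned and 3 with cells passing both fibroblast gates counted as matrix fibroblasts. Genes called numbered 229, against 40 with RLE, 37 with DESeq2, 362 with no filter, 106 without the block, 362 with multi-gate cells, 9 with only the compared subsets and 428 without Dcn cells. Pi16 over matrix fibroblasts called 1 member, and 0 with RLE, DESeq2, no block or only the compared subsets. It called 243 genes, against 20, 28, 389, 147, 383 and 7 under RLE, DESeq2, no filter, no block, multi-gate cells and only the compared subsets, 98 with both-gate cells and 444 without Dcn cells. Doubled gates left 0 matrix cells in mouse 1 and were not run there.

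Leaving out a mouse, which gives no test, turned the sign of several differences (log2) that were not called. Only those that also moved by more than the SD rule allowed are listed. Signs differed between the mice elsewhere too. In CPM, Meox1 in fibroblasts over endothelial cells was 0.069 in mouse 1 and -0.48 in mouse 2 (log2). Prrx1 in Pi16 over other fibroblasts was -0.11 and 0.39. Without mouse 1, Sox9 (4.05 to -4.44) and Hand2 (3.05 to -3.22) turned in mural cells over macrophages. In endocardial over other endothelial cells, Tcf21 turned without mouse 1 (0.41 to -5.80) and Gata4 without mouse 2 (3.41 to -3.45). Under the other alternatives, reversed differences (log2) were all of values that passed no test, except Gata6 in mural cells over macrophages (-4.24 with doubled gates). With Dcn cells left out, Prrx1 turned to 0.16 in fibroblasts over mural cells, Hand2 to 0.080 in mural over endothelial cells, Tbx20 to -0.73 in endothelial cells over macrophages (-0.10 with doubled gates) and Tcf21 to -5.10 in endocardial over other endothelial cells (-0.32 with multi-gate cells). Hand2 in endocardial cells over other fibroblasts turned to 0.25 with RLE, 0.28 with DESeq2, 0.63 with multi-gate cells, 0.22 with doubled gates and 0.26 without Dcn cells, and Gata4 to 0.047 with doubled gates. Osr1 in mural cells over macrophages turned to 1.61 with DESeq2. In matrix over other fibroblasts, Tbx20 turned to 0.20 with RLE, 0.20 with DESeq2 and 0.35 with both-gate cells, Prrx1 to 0.031 and Hand2 to 0.041 with both-gate cells. In Pi16 over matrix fibroblasts Tbx20 turned to -0.012 with RLE, -0.013 with DESeq2 and -0.13 with both-gate cells, and Hand2 to -0.14 with both-gate cells. Depth limits the mural, endocardial and matrix sums, with 105, 80 and 5 cells in all.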
